A study of Mus musculus with 24 samples.

Results

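The genes described here encode mainly chaperones of the cytosol, nucleus and mitochondria, with their co-chaperones and the heat shock factors. They were taken by name as the rows of the count table whose symbols begin with Dnaja, Dnajb, Dnajc, Hspa, Hspb or Hsp90a and go on with a number or letter, together with Hsph1, Hspd1, Hspe1, Cct2 to Cct8, Tcp1, Bag1 to Bag6, Hsf1 and Hsf2. Among the 12310 genes listed, 72 matched, and 64 remained after 5 chaperones of the endoplasmic reticulum (Hspa5, Dnajb9, Dnajb11, Dnajc3 and Dnajc10) and 3 pseudogenes were left out. The rule goes by symbol alone. The 64 still hold 8 genes assigned to the endoplasmic reticulum or secretory vesicles, among them Hspa13, Dnajb14 and Dnajc1. The 64 comprise 10 HSP70 and HSP110 proteins, 2 HSP90 proteins, 2 small heat shock proteins, HSP60 and its partner HSP10, 8 subunits of the CCT chaperonin, 4 DNAJA, 7 DNAJB and 21 DNAJC proteins, 6 BAG proteins and 2 heat shock factors. Hspa1a, Hspb1 and Hspb8, which belong to the same families, were not analysed here.

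The RNA came from MIN6 cells, a β-cell line derived from a mouse insulinoma, that received 50 µM verapamil over 24 h (verapamil) or none (control). Both groups were kept in 5.6 mM glucose, and verapamil, a blocker of L-type calcium channels, was the only agent that set them apart. Each group has 12 libraries, and the study describes 4 independent experiment sets with 3 replicates of each. Which library belongs to which set was read here from the first digit of its description, an assignment that no source spells out. Of the column names, 4 could belong to several samples of their group, and those libraries carry no number here.

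Chaperones hold unfolded chains and release them in cycles driven by ATP. HSP70 proteins take their clients from J-domain proteins (DNAJ), which stimulate ATP hydrolysis, and let them go with the help of nucleotide exchange factors such as the HSP110 and BAG proteins. HSP90 acts later, on nearly folded kinases and receptors, while the barrel-shaped chaperonins CCT (in the cytosol) and HSP60 (in mitochondria) enclose their clients. HSF1 is the factor that turns on many of these genes after heat or proteotoxic stress, through heat shock elements built from alternating GAA and TTC units. β-cells carry a heavy load of secretory protein, which is folded mainly by the chaperones of the endoplasmic reticulum.

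Heat shock elements were looked for in the RefSeq promoter windows on GRCm38.p6 (250 bases before to 50 bases after each gene's start), since they are the sequence that ties several of these genes to HSF1. A window was found for 50 of the 64 genes. The pattern searched, 3 alternating units spelled GAANNTTCNNGAA or its reverse complement TTCNNGAANNTTC, was present in the windows of 4 of these 50 genes (8.0%) and of 179 of all 27025 genes (0.662%). Hspd1 and Hspe1, which encode HSP60 and HSP10, stand head to head on chromosome 1, and 2 overlapping matches lie in the stretch that both windows cover. It is shown here on the strand of Hspe1, with the matched bases in capitals; in GENCODE M21 it falls inside the first exon of 1 of the Hspd1 transcripts. The matches of Dnajb6 and Hsph1 lie in annotated first exons. In the RefSeq windows searched, the Dnajb6 match lies before the gene's start, by 46 to 34 or 127 to 115 bases depending on the window. The Hsph1 match lies after the start in both of its windows. The stretches are at chr1:55088053-55088082 (+), chr5:29735846-29735870 (+) and chr5:149636282-149636306 (-).
Hspd1 and Hspe1: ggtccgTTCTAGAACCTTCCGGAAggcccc
Dnajb6: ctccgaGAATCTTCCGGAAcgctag
Hsph1: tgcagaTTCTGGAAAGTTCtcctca
A match describes letters and not a bound site. Of the other motifs, the CCAAT box (CCAAT or ATTGG) was in 18 of the 50 windows (36.0%) against 41.1% of all windows. The CARE element of ATF4 (TGATGNAAT or ATTNCATCA) was in 0 of the 50 against 1.08% of all.

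The deposited raw counts summed to 12590476 to 44806556 per library. All 64 genes passed the filter on low counts, and 5 of them averaged under 2 CPM, the counts scaled to a common library size. Levels are CPM after TMM normalization. Changes are log2 fold changes of verapamil over control from edgeR's quasi-likelihood test on 12 against 12 libraries, with standard errors (SE) and p-values adjusted over the 12306 genes tested; a gene is called higher or lower where the adjusted p is under 0.05. The replicates of a set may be technical repeats, since no separate cultures are mentioned. The p-values over 12 libraries per group therefore rest on a spread that may be partly technical, and a test over the 4 sets per group is given beside them. The verapamil libraries varied more than the controls (biological coefficient of variation 0.275 against 0.102). Their gene-wise deviations from the control mean followed the GC content of the transcripts, with Pearson's r across genes of 0.038 to 0.648, against -0.18 to 0.162 in the controls. The values were highest in sets 2 and 3 (0.492 to 0.648). The library in column V11, of set 4, stood apart from the other 2 verapamil libraries of its set. Its r was 0.377 against 0.038 and 0.078 for GC content, and -0.605 against -0.074 and -0.035 for transcript length. Values of set 4 are also given without it for some of the genes that moved, but not for all. The β-cell markers of the list used were all in the table (8 of 8, summed 2481 to 3412 CPM in the controls and 2323 to 3186 CPM with verapamil). Among them 1 was called higher (Mafa, 0.85) and 3 lower (Ins2, -1.05, Slc2a2, -0.84, and Iapp, -0.85). Of the markers of other cells, Gcg was the only 1 of 6 for other islet cells, Sox9 the only 1 of 7 for acinar and ductal cells and Pdgfra the only 1 of 7 for fibroblasts, while those of endothelial cells and leukocytes were not in the table. Gcg stood at 174 to 198 CPM in the controls and 176 to 333 CPM with verapamil, Sox9 at 1.45 to 4.02 and 0.58 to 2.27 CPM, and Pdgfra at 0.67 to 1.45 and 0.092 to 1.20 CPM. Gcg was called higher (0.49), and Sox9 (-0.87) and Pdgfra (-1.002) lower. The part of these markers in the results was not tested.

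With verapamil the RNA of several abundant cytosolic and mitochondrial chaperones fell, among them Hsp90aa1, Hspd1, Hspa4 and Hspa4l, and that of a smaller group rose, among them Dnajc22, Bag1, Dnajc15, Dnajb2, Hspe1 and Hsf1. In bulk RNA, fewer cells of a kind and less RNA per cell cannot be told apart. Of the 64 genes 13 (20.3%) were called higher and 25 (39.1%) lower, while 26 passed in neither direction. Among all genes tested 31.2% were called higher and 31.6% lower. The median log2 fold change of the 64 genes was -0.13, that of all genes 0.00. The extremes were Hsp90aa1 (-1.05) and Dnajc22 (0.63). The verapamil libraries, 12 of 12, exceeded the highest control for 1 of the 64 genes, Dnajc22 (4.95% of all genes), and fell short of the lowest control for 2, Hsp90aa1 and Hspa4l (5.18% of all genes).

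**Figure D1:**
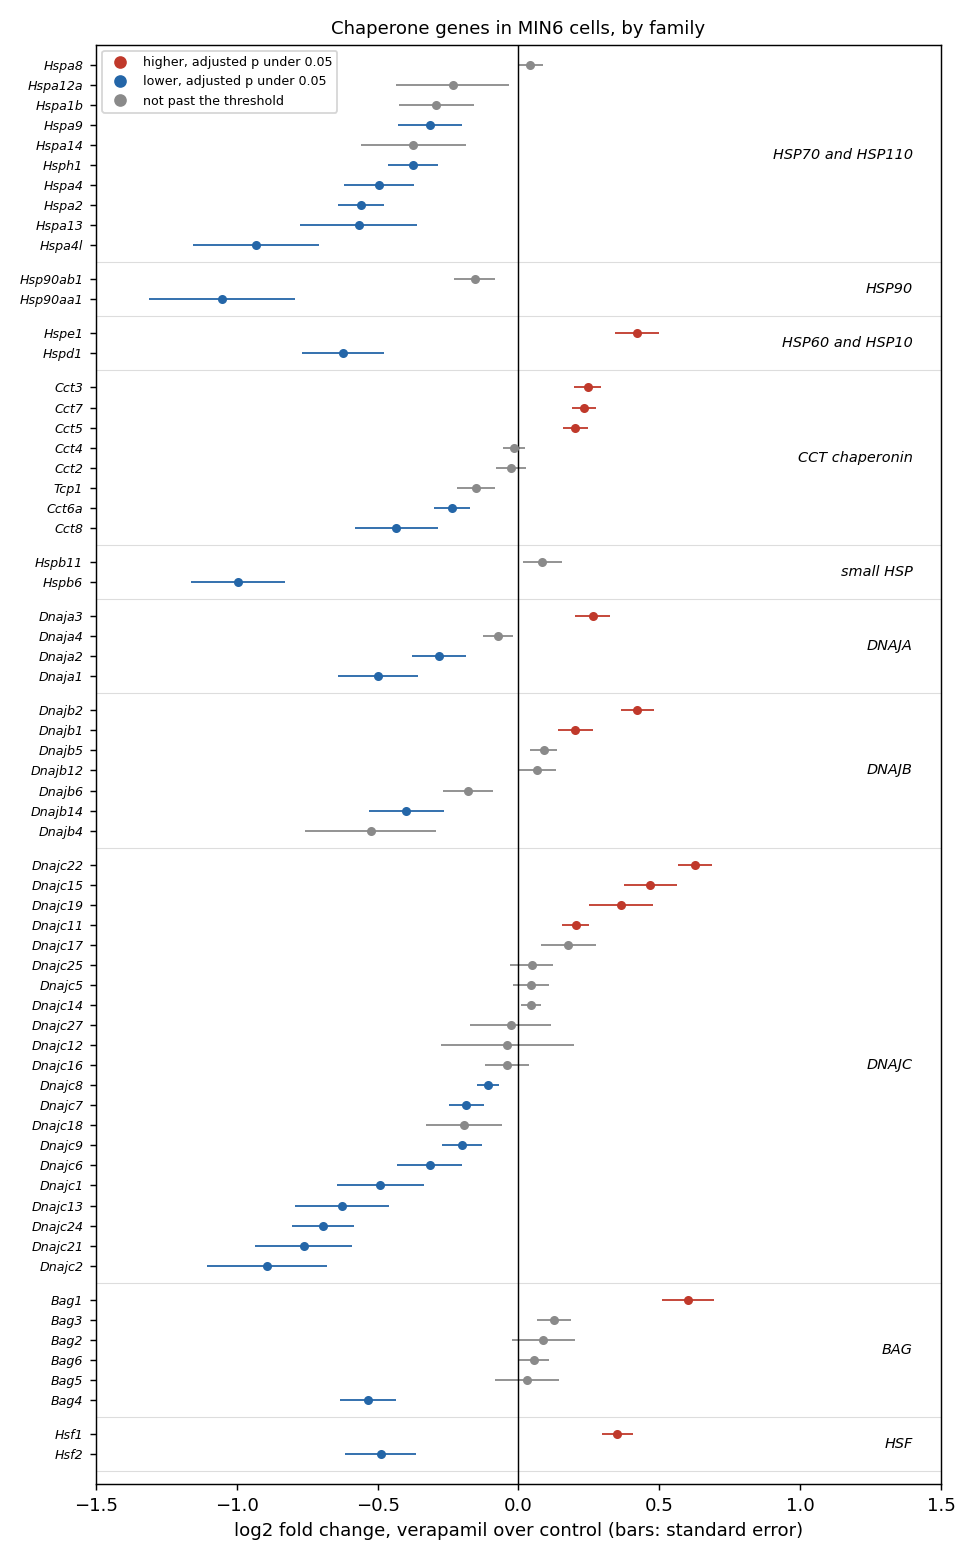
Log2 fold change of verapamil over control (x axis) for each of the 64 chaperone genes (y axis), grouped by family; points are edgeR estimates from 12 against 12 libraries and bars their standard errors. In the HSP70 and HSP110 group 6 of 10 genes were called lower, against 31.6% of all genes, and the other 4 passed in neither direction. The CCT subunits lie on both sides of 0 between -0.43 and 0.25.

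The fall of many members was uneven over the 4 experiment sets. All 25 genes that were called lower had their lowest difference in set 2 or 3, the sets whose verapamil libraries followed GC content most closely, and 20 of the 25 were below 0 in all 4 sets. The 13 genes that were called higher were above 0 in all 4 sets, and 12 of them had their highest difference in set 2 or 3. The effect differed between sets (interaction of experiment set and treatment) for 13 of the 64 genes (20.3%) against 9.72% of all genes. In sets 1 and 4 alone, a split chosen after the data were seen, 8 of the 64 were called higher and 8 lower, against 13.4% and 12.0% of all genes, and 14 of the 38 calls remained. Without V11 the same sets gave 8 higher and 14 lower, against 18.2% and 18.8% of all genes, and 18 of the 38 calls remained. In sets 2 and 3 alone, 17 were called higher and 28 lower, against 34.1% and 34.8% of all genes.

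Summing the counts of each set, for a test of 4 against 4, gave 12 higher and 7 lower, against 24.4% and 17.3% of all genes, and 19 of the 38 calls remained. The 12 were the genes that had been called higher apart from Dnajb1, and the 7 were Bag4, Dnajb14, Dnajc24, Hspa2, Hspa4l, Hspb6 and Hsph1, so that Hsp90aa1, Hspd1, Hspa4 and the other 15 lower genes missed the threshold there. With an offset that removes from every library its trend over GC content and length, 13 were called higher and 24 lower, against 20.9% and 34.4% of all genes, and 22 of the 38 calls remained in the same direction. With the libraries' GC and length slopes as covariates, 7 were called higher and 7 lower, against 21.4% and 14.2% of all genes, and 10 calls remained. The slopes are partly shared with treatment (variance inflation 2), and the 2 cannot be told apart in full. Bag1 and Dnajc22 (higher) and Dnajc24, Hspa2 and Hspb6 (lower) passed in the same direction in the sums, with the offset, with the covariates and also in sets 1 and 4 alone.

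**Figure D2:**
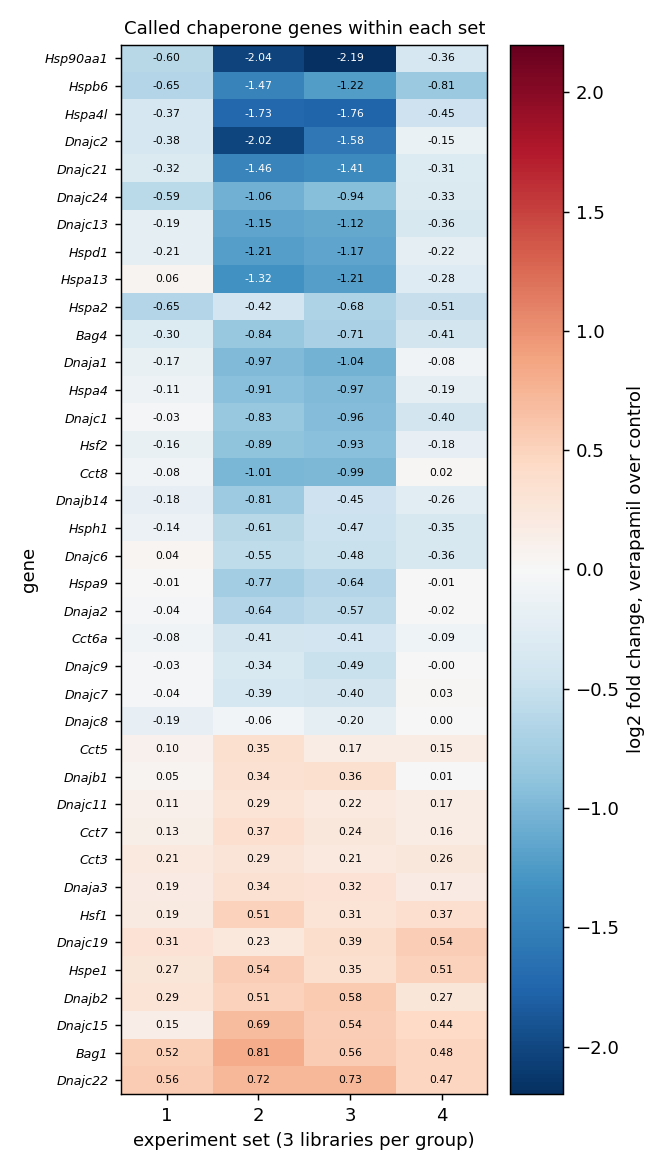
Log2 fold change of verapamil over control within each experiment set (columns, 3 libraries per group) for the 38 chaperone genes called in either direction (rows), with the value printed in each cell; red is higher and blue lower with verapamil. The blue cells are deepest in sets 2 and 3, as for Hsp90aa1 with -2.04 and -2.19 against -0.60 and -0.36 in sets 1 and 4.

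Of the HSP90 genes, only Hsp90aa1, the stress-inducible cytosolic form (chr12:110690605-110702728, GRCm38), was called lower over all libraries. Its lowest, median and highest levels were 598, 664 and 784 CPM in the controls and 78.0, 309 and 550 CPM with verapamil, so the groups did not overlap. The log2 fold change was -1.05 (SE 0.26, adjusted p = 0.00132 by edgeR). Summed as 4 sets against 4, edgeR gave an adjusted p of 0.071, and an exact permutation test gave p = 0.0286, the smallest two-sided p that 4 against 4 allows. In sets 1 and 4 alone the change was -0.48 (adjusted p = 0.00141, edgeR), and with the covariates -0.31 (adjusted p = 0.014, edgeR). Hsp90ab1, the constitutive form, had 799, 965 and 1065 CPM in the controls and 661, 881 and 1058 CPM with verapamil. The ranges overlapped, and its change of -0.16 (SE 0.07) did not pass (adjusted p = 0.0702, edgeR). With the offset Hsp90ab1 was called lower, at -0.33 (adjusted p = 0.000761, edgeR). In sets 1 and 4 without V11 it was lower as well, at -0.25 (adjusted p = 0.0091, edgeR). With the covariates it was at -0.235 and did not pass (adjusted p = 0.055, edgeR). Per kilobase of transcript, the level of Hsp90aa1 was 0.53 ± 0.05 times that of Hsp90ab1 in the controls (SD, n = 12) and 0.29 ± 0.17 times with verapamil (n = 12). In the verapamil libraries of sets 2 and 3 the mean ratio was 0.15 and 0.14.

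Of the 10 HSP70 and HSP110 genes 6 were called lower, the other 4 passed in neither direction, and 9 had a log2 fold change below 0. Of all genes tested, 31.6% were called lower and 31.2% higher. Hspa8, the constitutive cytosolic HSP70, had the highest level per kilobase of the 64 genes (847 CPM per kb in the controls). It stood at 1921, 1986 and 2221 CPM in the controls and at 1889, 2051 and 2625 CPM with verapamil, with overlapping groups (log2 fold change 0.04, SE 0.04, adjusted p = 0.422, edgeR). Hspa1b, the heat-inducible HSP70, was low, at 5.22, 7.77 and 14.0 CPM in the controls and 5.02, 6.72 and 7.61 CPM with verapamil. Over all libraries it did not pass (-0.29, SE 0.13, adjusted p = 0.0612, edgeR), and its reads are uncertain because Hspa1a is nearly identical. In sets 1 to 4 Hspa1b was at -0.55, 0.03, 0.05 and -0.60. It was called lower in sets 1 and 4 alone (-0.58, adjusted p = 0.0249, edgeR), also without V11 (-0.61, adjusted p = 0.0129, edgeR). With the offset it was lower as well (-0.54, adjusted p = 0.0025, edgeR), but not with the covariates (-0.29, adjusted p = 0.235, edgeR). Hspa14 and Hspa12a, both under 2 CPM, did not pass either.

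The 3 HSP110 proteins in the table, which exchange the nucleotide of HSP70, were all called lower. Hspa4l (chr3:40744495-40796103) stood at 82.8, 90.1 and 99.6 CPM in the controls and at 13.2, 37.1 and 82.6 CPM with verapamil, a separation without overlap but by a narrow margin. Its log2 fold change was -0.93 (SE 0.22, adjusted p = 0.00099, edgeR), with -1.73 and -1.76 in sets 2 and 3 against -0.37 and -0.45 in sets 1 and 4. In set 4 the library V11 stood at 33.9 CPM and the other verapamil libraries at 82.6 and 81.4 CPM, and without V11 the change of that set was -0.14. Its transcript is among the longest and most GC-poor of the group, and with the covariates for those trends the change was -0.05 (adjusted p = 0.444, edgeR), while with the offset it was -0.16 (adjusted p = 0.0292, edgeR). Hspa4, the most abundant of the 3, had 723, 771 and 862 CPM in the controls and 287, 522 and 769 CPM with verapamil (-0.50, SE 0.12, adjusted p = 0.00158, edgeR). Of its 12 verapamil libraries 10 lay below every control. Hsph1 went from a median of 113 CPM to 83.4 CPM (-0.37, SE 0.09, adjusted p = 0.000988, edgeR). With the covariates neither Hspa4 (0.01) nor Hsph1 (-0.01) passed, and Hspa4 missed the threshold in the sums as well. With the offset both passed, at -0.28 and -0.25.

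Hspa2, an HSP70 best known from the testis, fell in each set. Its levels were 4.45, 5.40 and 6.64 CPM in the controls and 2.77, 3.81 and 4.63 CPM with verapamil, from 60 to 179 reads per library. The groups overlapped in 1 verapamil library. The log2 fold change was -0.56 (SE 0.08, adjusted p = 4.77e-06, edgeR), and those of the sets were -0.65, -0.42, -0.68 and -0.50. Hspa9, the HSP70 of the mitochondrial matrix, went from a median of 622 CPM to 528 CPM (-0.31, SE 0.11, adjusted p = 0.019, edgeR), and Hspa13, an HSP70-like ATPase of the endoplasmic reticulum, from 45.0 to 26.8 CPM (-0.57, SE 0.21, adjusted p = 0.0209, edgeR). In sets 1 and 4 Hspa9 was at -0.01 and -0.01 and Hspa13 at 0.06 and -0.28, the latter -0.04 without V11. The differences between sets passed for Hspa9 (interaction adjusted p = 0.0226, edgeR) and not for Hspa13 (0.0635). With the covariates both reversed, to 0.12 and 0.26. A processed pseudogene of Hspa9, Hspa9-ps1, has a row of its own at 19.5 and 15.5 CPM.

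**Figure D3:**
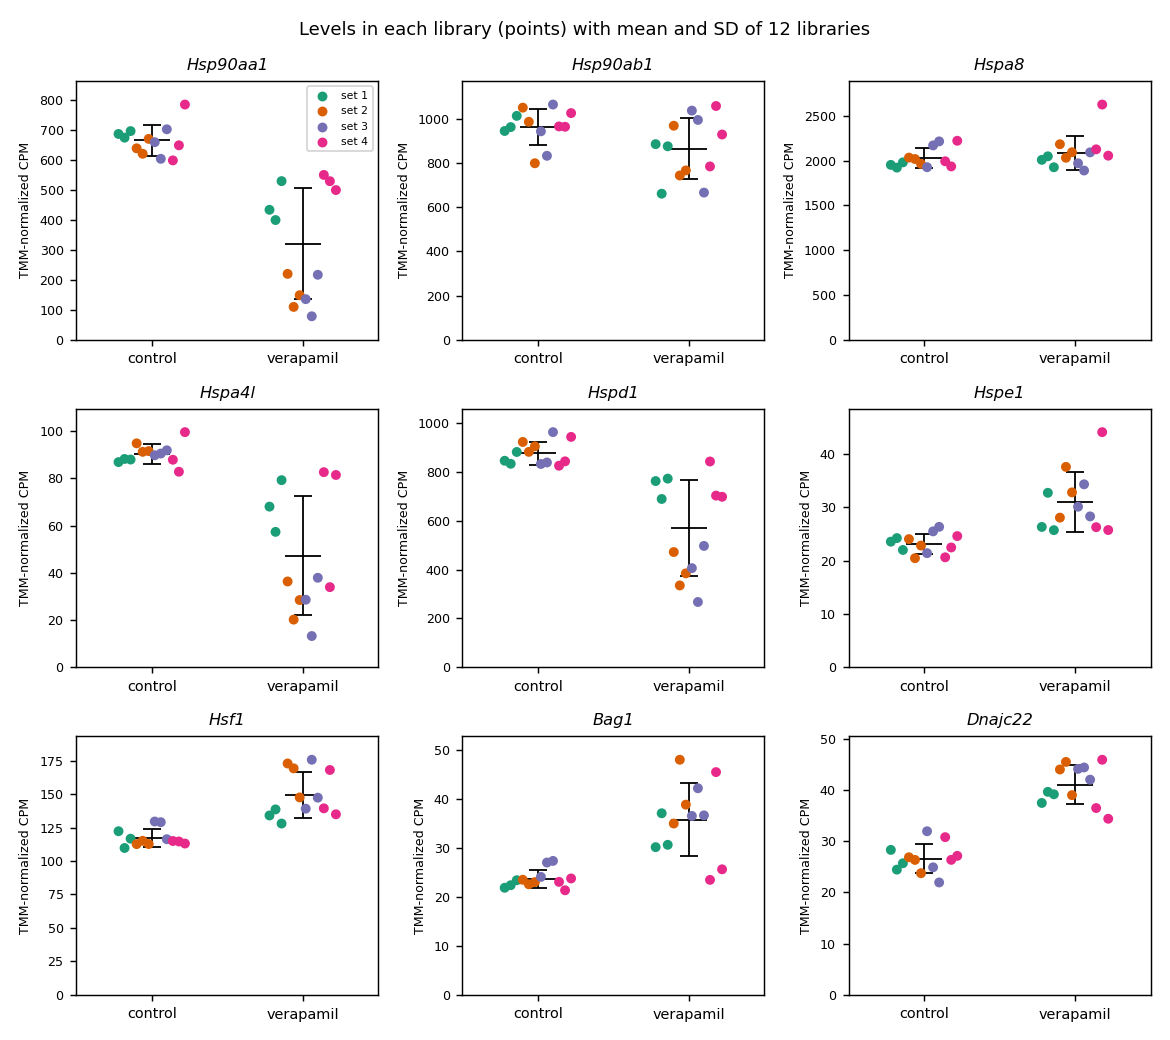
TMM-normalized CPM (y axis, from 0) of 9 chaperone genes in each library, control and verapamil (x axis), coloured by experiment set; bars give the mean and SD of 12 libraries. In Hsp90aa1 and Hspd1 the 6 verapamil libraries of sets 2 and 3 lie below the 6 of sets 1 and 4, in Hspa8 the groups overlap, and Dnajc22 separates the groups in every library.

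HSP60 and HSP10 assemble into the same mitochondrial folding chamber, and their genes moved apart. Hspd1 (chr1:55077835-55088243) had 827, 865 and 964 CPM in the controls and 268, 594 and 844 CPM with verapamil, and 11 of the 12 verapamil libraries lay below every control. Its log2 fold change was -0.62 (SE 0.15, adjusted p = 0.000823, edgeR), with -0.21, -1.21, -1.16 and -0.22 in sets 1 to 4. Hspe1 (chr1:55088132-55091307) had 20.5, 23.2 and 26.3 CPM in the controls and 25.7, 29.2 and 44.1 CPM with verapamil, a rise of 0.42 (SE 0.08, adjusted p = 9.54e-05, edgeR). In sets 1 and 4 alone both calls remained, at -0.21 for Hspd1 (adjusted p = 0.0147, edgeR) and 0.40 for Hspe1 (adjusted p = 0.0405, edgeR). Without V11 they were at -0.20 and 0.25 there (adjusted p = 0.00498 and 0.0157, edgeR). With the covariates neither passed (-0.12 and 0.13). With the offset Hspd1 was at -0.57 (adjusted p = 0.000311, edgeR) and Hspe1 at 0.01.

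Per kilobase, the level of Hspd1 was 12.2 ± 0.88 times that of Hspe1 in the controls (SD, n = 12, range 10.5 to 13.8) and 6.17 ± 2.71 times with verapamil (n = 12, range 2.49 to 10.3), with no overlap. Within the sets the mean ratio fell from 11.8 to 8.54, from 12.9 to 3.99, from 11.6 to 4.14 and from 12.4 to 8.01. The windows of both genes hold the 2 overlapping matches shown earlier, and their exons overlap by 112 bases on opposite strands. Reads are uncertain for both, because processed copies have rows of their own: Hspd1-ps3 alone held 517 CPM in the controls and 338 CPM with verapamil (-0.61), and Hspe1-ps6 held 0.68 and 0.84 CPM. The sources used here do not say how reads that fit several copies were counted.

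Apart from Hspd1 and Hspa9, the mitochondrial members of the list were called higher. Of the 7 mitochondrial genes of the list in the table, Hspe1, Dnaja3, Dnajc11, Dnajc15 and Dnajc19 were called higher and Hspd1 and Hspa9 lower. The shares among all genes tested were 31.2% higher and 31.6% lower. Dnajc15, a J-protein of the inner membrane known to restrain complex I, had 16.0, 18.0 and 21.2 CPM in the controls and 17.9, 24.7 and 32.8 CPM with verapamil (0.47, SE 0.09, adjusted p = 0.00018, edgeR). Dnajc19, a subunit of the import motor, rose from a median of 17.4 to 22.5 CPM (0.37, SE 0.11, adjusted p = 0.00731, edgeR) and has a copy, Dnajc19-ps, that was also higher (0.28). Dnaja3, the matrix J-protein that works with Hspa9, rose by 0.26 (SE 0.06) and Dnajc11, which belongs to the complex that shapes the cristae, by 0.20 (SE 0.05). The groups overlapped in all 4 genes. In sets 1 and 4 alone and with the covariates none of these 4 passed, with values of 0.14 to 0.43 and of 0.03 to 0.09. Without V11 the values in sets 1 and 4 were 0.11 to 0.28, and none passed. With the offset Dnajc15 (1.09, adjusted p = 2.96e-05, edgeR), Dnajc19 (0.285, adjusted p = 0.0146, edgeR) and Dnaja3 (0.11, adjusted p = 0.0329, edgeR) were called higher. Dnajc11 was at 0.008 there and did not pass. For Dnajc15 the offset and the covariates thus differed widely, at 1.09 and 0.06.

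The 8 subunits that form each ring of the CCT chaperonin, which folds actin and tubulin, did not move as a unit. Cct3, Cct7 and Cct5 were called higher, Cct8 and Cct6a lower, and Tcp1, Cct2 and Cct4 did not pass. Cct3 had 500, 527 and 584 CPM in the controls and 552, 645 and 754 CPM with verapamil (0.24, SE 0.05, adjusted p = 9.17e-05, edgeR), with 0.21, 0.29, 0.21 and 0.26 in the 4 sets (0.10 in set 4 without V11). Cct7 (0.23, SE 0.04) and Cct5 (0.20, SE 0.04) had similar changes. Cct8 had 289, 306 and 347 CPM in the controls and 107, 238 and 341 CPM with verapamil (-0.43, SE 0.15, adjusted p = 0.0141, edgeR), with -1.01 and -0.99 in sets 2 and 3 against -0.08 and 0.02 in sets 1 and 4 (-0.05 in set 4 without V11). Cct6a went from a median of 285 to 247 CPM (-0.24, SE 0.06). The changes of Tcp1 (-0.15), Cct2 (-0.03) and Cct4 (-0.02) did not pass.

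Apart from Cct8, the order of the CCT levels did not change. In the controls Cct8 (128.5 CPM per kb) stood above Cct6a (115.8 CPM per kb) and Cct4 (96.88 CPM per kb). With verapamil Cct8 (95.15 CPM per kb) stood just below Cct6a (98.32 CPM per kb) and Cct4 (95.82 CPM per kb). Per kilobase the controls ran from Cct7 (282 CPM per kb) and Cct3 (271 CPM per kb) down to Tcp1 (92.6 CPM per kb) and Cct2 (64.4 CPM per kb), and with verapamil Cct7 (332 CPM per kb) and Cct3 (322 CPM per kb) stayed at the top and Cct2 (63.2 CPM per kb) at the bottom. Of the 5 calls, those of Cct8 and Cct6a were lost in the sums and, with the covariates, none of the 5 passed, with values of 0.00 to 0.10. With the offset Cct6a was still called lower (-0.20, adjusted p = 0.000924, edgeR) and Cct3 higher (0.11, adjusted p = 0.00726, edgeR). Cct4 was also called higher there (0.20, adjusted p = 0.000661, edgeR). Cct5 (0.00), Cct7 (-0.025) and Cct8 (-0.17) did not pass with the offset. A copy of Cct3, Cct3-ps1, was also higher (0.19).

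The J-proteins of the cytosol that deliver clients to HSP70 moved in both directions. Dnaja1, the main type A partner of HSP70, had 568, 606 and 667 CPM in the controls and 186, 445 and 611 CPM with verapamil (-0.50, SE 0.14, adjusted p = 0.0041, edgeR), with -0.97 and -1.04 in sets 2 and 3 and -0.17 and -0.08 in sets 1 and 4. Dnaja2, a further type A partner, went from a median of 403 to 348 CPM (-0.28, SE 0.10, adjusted p = 0.013, edgeR). With the offset both reversed, to 0.14 and 0.11. Dnajb2, which sorts ubiquitinated clients to the proteasome, had 34.2, 36.1 and 39.2 CPM in the controls and 39.1, 50.7 and 56.7 CPM with verapamil, and 11 of the 12 verapamil libraries lay above every control. Its rise of 0.42 (SE 0.06, adjusted p = 1.71e-06, edgeR) held in sets 1 and 4 alone (0.28, adjusted p = 0.0122, edgeR) and with the covariates (0.18, adjusted p = 0.000898, edgeR), but missed the threshold with the offset (0.09, adjusted p = 0.0502, edgeR). Dnajb1, the heat-inducible HSP40, rose by 0.20 (SE 0.06, adjusted p = 0.00765, edgeR), from a median of 226 to 262 CPM, and was at 0.05, 0.34, 0.36 and 0.01 in the sets (-0.12 in set 4 without V11). Dnajb14, an HSP40 of the endoplasmic reticulum membrane, fell by 0.40 (SE 0.13) and was at 0.31 with the offset. Dnajb4 was at -0.53 (SE 0.23, adjusted p = 0.0511, edgeR) with 5 to 70 reads per library, and Dnajb5, Dnajb6, Dnajb12 and Dnaja4 did not pass, with values of -0.18 to 0.09.

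Dnajc22 had the largest rise of the 64 genes and the smallest adjusted p. It encodes a membrane J-protein whose counterpart in Drosophila, Wurst, acts in clathrin-mediated endocytosis. Its levels (chr15:99093170-99104737) were 21.9, 26.3 and 31.9 CPM in the controls and 34.4, 40.8 and 45.9 CPM with verapamil, and no library overlapped. The log2 fold change was 0.63 (SE 0.06, adjusted p = 8.69e-09, edgeR), with 0.56, 0.72, 0.73 and 0.47 in the sets (0.33 in set 4 without V11). It stayed at 0.31 with the offset (adjusted p = 8.42e-05, edgeR) and at 0.47 with the covariates (adjusted p = 2.72e-06, edgeR).

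Of the 21 DNAJC genes 4 were called higher (Dnajc22 and the mitochondrial Dnajc15, Dnajc19 and Dnajc11) and 9 lower. The shares among all genes tested were 31.2% and 31.6%. The largest falls were in Dnajc2, Dnajc21 and Dnajc24, which serve ribosomes or translation, and the endosomal Dnajc13 followed at -0.63. Dnajc2, a J-protein bound to the ribosome, had 7.22, 9.53 and 12.6 CPM in the controls and 2.02, 4.86 and 10.0 CPM with verapamil (-0.89, SE 0.21, adjusted p = 0.00103, edgeR), with -2.02 and -1.58 in sets 2 and 3. Sets 1 and 4 were at -0.38 and -0.15, and alone gave -0.27 (adjusted p = 0.222, edgeR). Dnajc2 missed the threshold in the sums and with the covariates (-0.27, adjusted p = 0.2, edgeR). With the offset it passed, at -0.77 (adjusted p = 0.000677, edgeR). Dnajc21, a factor of large ribosomal subunit assembly, had 58.3, 66.5 and 72.7 CPM in the controls and 16.4, 38.6 and 59.4 CPM with verapamil (-0.76, SE 0.17, adjusted p = 0.000581, edgeR). It also passed in sets 1 and 4 alone (-0.31, adjusted p = 0.00735, edgeR), with the offset (-0.73) and with the covariates (-0.21). Dnajc24, needed for the diphthamide of elongation factor 2, had 23.2, 27.8 and 36.5 CPM in the controls and 13.3, 16.9 and 24.8 CPM with verapamil (-0.69, SE 0.11, adjusted p = 1.32e-05, edgeR), and was at -0.74 with the offset and -0.49 with the covariates. The groups of Dnajc24 overlapped in 2 verapamil libraries.

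Dnajc13, an endosomal J-protein, went from a median of 191 to 103 CPM (-0.63, SE 0.17, adjusted p = 0.0025, edgeR) and was at 0.08 with the covariates. Of the remaining calls, all lower, Dnajc1 (endoplasmic reticulum), Dnajc6 (auxilin, which uncoats clathrin vesicles), Dnajc9 (a histone co-chaperone), Dnajc7 (which links HSP70 and HSP90) and Dnajc8 (spliceosome) lay between -0.49 and -0.11; these 5 fell outside the rule for named genes and are named to complete the count. Dnajc5, the cysteine string protein of secretory vesicles, had 201, 212 and 232 CPM in the controls and 140, 223 and 265 CPM with verapamil and did not pass (0.04, adjusted p = 0.549, edgeR). The other 7 DNAJC genes lay between -0.19 and 0.18 without passing.

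Bag1, an exchange factor that couples HSP70 to the proteasome, led the BAG family. It had 21.4, 23.3 and 27.4 CPM in the controls and 23.5, 36.6 and 48.1 CPM with verapamil, and 10 of the 12 verapamil libraries lay above every control. Its log2 fold change was 0.60 (SE 0.09, adjusted p = 7.98e-06, edgeR), with 0.52, 0.81, 0.57 and 0.48 in the sets (0.10 in set 4 without V11), 0.18 with the offset and 0.20 with the covariates. Bag4, which binds death receptors, fell from 11.8, 12.8 and 14.8 CPM to 6.07, 8.51 and 12.4 CPM (-0.53, SE 0.10, adjusted p = 7.97e-05, edgeR). It was lower in all 4 sets (-0.30, -0.84, -0.71 and -0.41, with -0.28 in set 4 without V11). In sets 1 and 4 alone it was also lower (-0.35, adjusted p = 0.022, edgeR), but it did not pass with the covariates (-0.16, adjusted p = 0.0837, edgeR). Bag3, the heat-inducible member that feeds selective autophagy, stood at 0.13 (SE 0.06, adjusted p = 0.0631, edgeR). Bag6, which guards tail-anchored proteins, was at 0.05, Bag2 at 0.09 and Bag5 at 0.03, and none of them passed. Bag5 had opposite differences in the sets, 0.61 and 0.21 in sets 1 and 4 (0.11 in set 4 without V11) and -0.38 and -0.41 in sets 2 and 3.

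The heat shock factors moved in opposite directions. Hsf1 (chr15:76477422-76501913) had 110, 115 and 130 CPM in the controls and 128, 143 and 176 CPM with verapamil, with 11 of the 12 verapamil libraries above every control. Its rise of 0.35 (SE 0.05, adjusted p = 7.88e-06, edgeR) also passed in sets 1 and 4 alone (0.29, adjusted p = 0.00758, edgeR) and with the covariates (0.16, adjusted p = 0.0089, edgeR), but not with the offset (0.03). Hsf2 (chr10:57486385-57513135) had 48.1, 52.5 and 54.7 CPM in the controls and 18.3, 36.7 and 49.6 CPM with verapamil (-0.49, SE 0.13, adjusted p = 0.00204, edgeR). It missed the threshold in sets 1 and 4 alone (-0.17, adjusted p = 0.127, edgeR) and was at 0.02 with the covariates.

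Without adjustment for GC content and length, the genes of the heat-inducible list moved in both directions. The list also holds Hspa8 and Hsp90ab1, described earlier as constitutive. They passed in neither direction without adjustment, and both were called lower with the offset (-0.14 and -0.33). Of the 12 in the table, Dnajb1 and Hspe1 were called higher and Hsp90aa1, Hspa4l, Hspd1, Dnaja1 and Hsph1 lower. The median of the 12 was -0.33. Of all genes tested, 31.2% were called higher and 31.6% lower. With the offset 0 of the 12 were called higher and 8 lower, against 20.9% and 34.4% of all genes. With the covariates 0 were called higher and 1 lower, against 21.4% and 14.2% of all genes. In the list of 10 other heat shock targets measured, 5 were called higher and 1 lower, with a median of 0.09. The largest changes were in Chordc1, an HSP90 cofactor (-0.86, SE 0.23), and Hmox1, heme oxygenase (0.44, SE 0.10). With the covariates neither passed. Small heat shock proteins hold unfolded chains without ATP. Hspb6, the HSP20 of muscle, had 0.97, 1.47 and 2.01 CPM in the controls and 0.23, 0.76 and 1.02 CPM with verapamil, on 5 to 59 reads per library. It fell by 1.00 (SE 0.17, adjusted p = 2.52e-05, edgeR), and the groups overlapped in 1 verapamil library. Hspb11, which serves intraflagellar transport, did not pass (0.09).

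The partners of these chaperones were counted in lists of genes outside the 64. The shares among all genes tested were 31.2% called higher and 31.6% lower. Of 19 cofactors of HSP90 and HSP70, 7 were called higher and 8 lower, with a median of -0.09. At 1 CPM or more, those that changed most were Chordc1, Ppid and Tomm70a, all 3 of them lower. Ppid (-0.65, SE 0.18) is a cyclophilin that binds HSP90. Tomm70a (-0.49, SE 0.13) is the mitochondrial import receptor to which HSP70 and HSP90 dock. In the sums and with the covariates none of the 3 passed. With the offset Ppid was lower, at -0.345 (adjusted p = 0.00222, edgeR). Tomm70a was higher there, at 0.19 (adjusted p = 0.00143, edgeR), and Chordc1 was at -0.01. Of 9 prefoldin and chaperonin cofactors, which hand actin and tubulin to CCT, 6 were called higher and 1 lower, with a median of 0.25. Pfdn1 (0.44, SE 0.06) and Pfdn4 (0.53, SE 0.18) rose and Pdcl (-0.57, SE 0.14) fell.

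Of 12 genes for folding and proteolysis in mitochondria, 5 were called higher and 4 lower, with a median of 0.01. Again, 31.2% of all genes tested were called higher and 31.6% lower. Atf5, a transcription factor of the mitochondrial unfolded protein response, went from 181 ± 13.2 to 454 ± 89.9 CPM (SD, n = 12 each; 1.33, SE 0.09, adjusted p = 5.76e-12, edgeR). Yme1l1, a protease, fell (-1.19, SE 0.27), and so did Clpx (-0.76, SE 0.16), which is an unfoldase and not itself a protease. Of 15 chaperones of the endoplasmic reticulum, 9 were called higher and 2 lower, with a median of 0.34, against -0.13 for the 64 genes. They were led by Sdf2l1 (1.33, SE 0.11), Creld2 (0.81, SE 0.08) and Manf (0.80, SE 0.07). With the covariates 13 of the 15 were called higher, against 21.4% of all genes, and the median was 0.43 against 0.01 for the 64 genes.

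**Figure D4:**
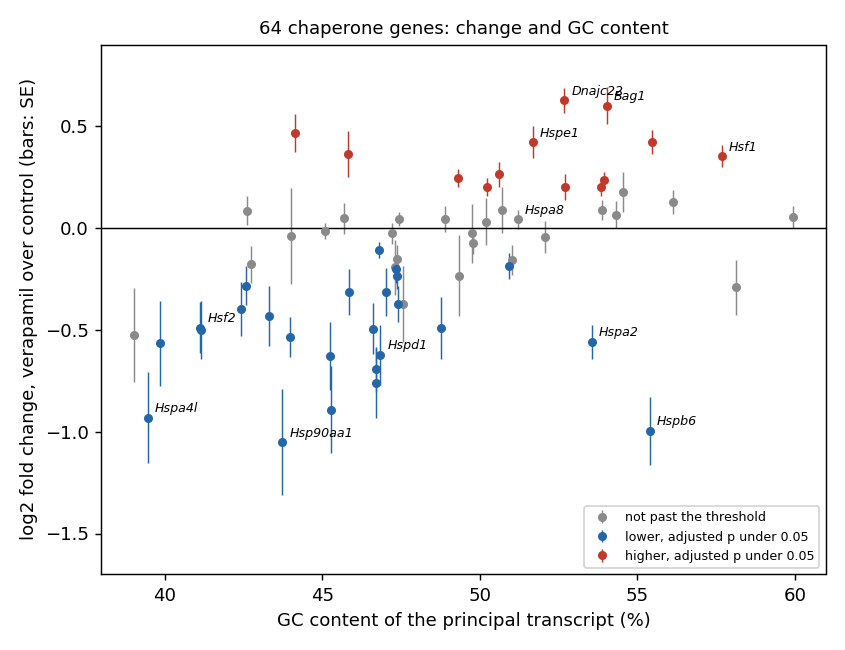
Log2 fold change of verapamil over control (y axis, bars are standard errors) against the GC content of the principal transcript in percent (x axis) for the 64 chaperone genes, coloured by call, with 11 genes named. Genes that were called higher had a median GC content of 52.7% and those called lower 46.6%, while Hspa2 and Hspb6 are lower at a GC content of 53.6% and 55.4%.

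Across the 64 genes, which are not independent replicates, the log2 fold change and GC content had a Pearson's r of 0.48, close to the 0.50 across the 12304 genes with a value, and r with log2 transcript length was -0.32 against -0.38. The 13 genes called higher had a median GC content of 52.7% and a median transcript length of 1977 bases, and the 25 called lower 46.6% and 2919 bases. All libraries share these features of the transcripts, and the part of the trend in each fold change was measured only through the offset and the covariates.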

How the data were processed

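Raw read counts per gene and library were deposited by the authors for 24 libraries of MIN6 cells, 12 control and 12 verapamil. According to the paper's methods and the submitters' processing notes they were made with bcl2fastq 2.20, Trimmomatic 0.39, HISAT2 2.1.0 (GRCm38) and HTSeq 0.9.1. The sources used here do not state the strand setting of the counting, and 22 of the 64 genes share exon bases with a gene on the opposite strand, so such reads are uncertain. Labels and paper differ on the RNA input and the library kit. The deposited table also holds the authors' own comparison (average log2 CPM, fold change, log2 fold change, p-value, adjusted p-value and a log10 column), which was not used.

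Groups came from the sample labels. Total counts of 12590476 to 44806556 per library limit precision most for genes near 1 CPM. Counts were tested with edgeR 4.0.16 in R 4.3.3 (filterByExpr with minimum count 10 and minimum total 15, TMM, quasi-likelihood, Benjamini-Hochberg over 12306 genes, threshold 0.05). The SE was taken as the absolute log2 fold change over the root of F. Within a group, no pair of libraries agreed within sampling noise (chi-square over its degrees of freedom 5.73 or more). Replicate numbers did not pair the libraries (correlations of -0.051 to 0.114 over 10 pairs). Alternatives were DESeq2 1.42.0, RLE normalization, no filter, blocks, sums per set, left-out libraries and sets, and the GC content and log2 length of the principal transcript in GENCODE M21 (matched for 12308 of 12310 genes) as an offset (spline, 4 degrees of freedom) or as covariates. The two-sided exact permutation test enumerated all splits of the summed libraries with numpy 2.4.6 under Python 3.11.15. The remaining tools were matplotlib 3.10.9, pandas 2.3.3 and limma 3.58.1. The edgeR step was tested on simulated data.

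Members, lists and rules were chosen with earlier results of these data known. Named are all members in the table of the heat-inducible, mitochondrial, CCT, HSP90, BAG and HSF lists, of each other family the 4 largest called changes in each direction with at least 1 CPM, and of the lists outside the 64 genes up to 3 called genes, of which not every gene is reported here. This gave 44 genes, 33 of them called. Hspa14, Hspa12a, Hspb11, Dnajc5 and the other uncalled DNAJ genes named in the text fell outside that rule.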

Additional observations from a re-analysis of the deposited data

Results flagged for a closer look

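For 13 of the 64 genes the effect of verapamil differed between the 4 experiment sets, by edgeR's test of the interaction of set and treatment adjusted over all genes tested. For Dnajc21, Hsp90aa1, Cct8, Hspd1 and Dnajc2, a ribosome assembly factor, the inducible HSP90, a CCT subunit, HSP60 and a ribosome-bound J-protein, the adjusted p was 0.00377, 0.00424, 0.00451, 0.00573 and 0.00667. All 5 were lowest in sets 2 and 3. For Bag5, whose differences had opposite signs in the sets, the adjusted p was 0.0116. For the HSP70 machinery, Hspa4, Dnaja2, Hspa9, Dnaja1 and Hspa4l, the adjusted p was 0.0189, 0.0223, 0.0226, 0.0239 and 0.0348. Tcp1, a CCT subunit that passed in neither direction over all libraries, had 0.0254, with -0.32 and -0.45 in sets 2 and 3 against 0.04 and 0.07 in sets 1 and 4 (0.01 in set 4 without the library V11). For Dnajc7, which links HSP70 and HSP90, the adjusted p was 0.0405. The verapamil libraries of sets 2 and 3 were those with the highest correlation of gene-wise deviations with GC content (0.492 to 0.648), and its part in these differences was not tested. The study describes the 4 sets but not which library belongs to which, so these values rest on that reading of the labels.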

How the results depend on the processing

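Under RLE normalization, DESeq2 and no filter, 13 of the 64 genes were called higher and 25 or 26 lower, and the median log2 fold change was -0.13. A block for the experiment set, a paired analysis, gave 13 higher and 28 lower, as did a block for the replicate number over 10 numbered pairs. These numbers share no more than a number, and the block changed no direction among the 44 named genes. With counts summed per set 7 were called lower, and without set 2 or set 3 in both groups 14 and 16; leaving out set 1 or set 4, as many samples, lost none of the calls of the named genes. In sets 1 and 4 alone, chosen after the data were seen, 8 were called higher and 8 lower, and there without V11 8 and 14, with Bag6 at -0.15, Dnajb1 at -0.021, Hspa13 at 0.013 and Hspa9 at 0.023; in sets 2 and 3 alone Bag5 was at -0.39. With GC and length slopes as covariates 7 were called higher and 7 lower and the median was 0.008; the covariates overlap with treatment (variance inflation 2). Among named genes that passed with or without the adjustment, signs turned with the offset for Bag3 (-0.14), Bag6 (-0.14), Cct4 (0.20), Cct5 (0.00), Cct7 (-0.025), Dnaja1 (0.14), Dnaja2 (0.11), Dnajb14 (0.31) and Hspa8 (-0.14), and with the offset and the block together for Bag3 (-0.14), Bag6 (-0.14), Cct4 (0.20), Cct5 (-0.001), Cct7 (-0.025), Dnaja1 (0.14), Dnaja2 (0.11), Dnajb14 (0.30) and Hspa8 (-0.15). They turned with the covariates for Bag6 (-0.16), Dnajb1 (-0.072), Dnajb14 (0.10), Dnajc13 (0.084), Hsf2 (0.017), Hspa13 (0.26), Hspa4 (0.011) and Hspa9 (0.12). The cause was not tested. Leaving out 1 library at a time changed 28 of 1056 values, each time to a pass, for Bag3, Dnajb4, Hsp90ab1, Hspa1b and Tcp1. Genes near 1 CPM, such as Hspb6 with 5 to 59 reads per library, are limited most by depth.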
